A study of Mus musculus with 8 samples.

Results

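The claudins and their closest partners at the tight junction were described here in the mucosa of the mouse colon and rectum. The set held 8 claudins (Cldn1, Cldn2, Cldn3, Cldn4, Cldn7, Cldn8, Cldn15 and Cldn23), occludin (Ocln) and the scaffold protein ZO-1 (Tjp1). They were chosen by name for their place in the junction, with earlier results of these data known. These were 10 of the 16309 genes that could be named on the array. The 10 genes were represented by 13 probes, and where a gene had more than 1 the probe with the highest mean signal stood for it. RNA came from wild-type (WT) mice and mice lacking interleukin 18 (IL18ko), brothers housed 5 to a cage until 10 to 12 weeks of age. Control mice were taken before isolation, and stress mice after being kept alone, for 8 days by the description of the design and 16 days by the treatment protocol, which could not be reconciled. Mucosa was taken from the middle colon, 2.5 to 3.5 cm from the ileocecum, and from the rectum, and an equal amount of RNA from 5 mice was pooled for each of 8 groups, which cross tissue with genotype and housing. Each pool was hybridised to 1 one-colour Agilent array, so that no group had a replicate, and the groups were colon WT control, colon WT stress, colon IL18ko control and colon IL18ko stress with the same 4 from the rectum.

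Tight junctions close the space between epithelial cells. Claudins span the membrane and decide which ions pass between the cells, some by forming selective pores and others by sealing, while occludin is a further membrane protein of the strand and ZO-1 ties the strand to the actin cytoskeleton. In the large intestine the distal segments are known for a tighter epithelium than the proximal ones, which lets them hold steep sodium and potassium gradients. Claudin 2 forms a cation and water pore and claudin 15 a cation pore. Claudins 1, 3, 4 and 8 are usually described as sealing claudins, and claudin 7 lies also along the basolateral membrane.

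Levels are given on the log2 scale relative to the 75th percentile of the array, so that 0 marks that percentile and 1 unit is a doubling. Because probes differ in how strongly they bind, a level was compared between arrays and never between genes. All 10 markers of simple intestinal epithelium were well above background on every array. Their summed linear level was 1285 to 1469 in colon and 1332 to 1534 in rectum, in multiples of the array's 75th percentile. These ranges overlap, so the summed level shows epithelium but does not tell colon from rectum, although single markers differed between the tissues. All 7 smooth muscle markers were also well above background on every array. They summed to 484 to 725 in colon and 436 to 636 in rectum, so the samples were not epithelium alone. Il18 read 2.68 and 2.83 in colon and 4.35 and 5.81 in rectum of WT mice, and was not well above background on the 4 IL18ko arrays. Between 62.2% and 66.4% of spots were well above background, and 0 spots were saturated. The 4 colon arrays lay on 1 slide and the 4 rectum arrays on another, so that tissue and slide cannot be told apart. Arrays were paired as if the colon and rectum pools of a group had shared their mice, which the labels leave unsaid. In RNA from whole tissue, fewer cells of a type and less RNA per cell cannot be told apart.

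The upstream sequences of 3 members are shown first, the claudins that carry the largest tissue difference (Cldn15), its fellow pore claudin (Cldn2) and the claudin with the largest genotype difference (Cldn4). RefSeq windows on GRCm38.p6 were matched for 8 of the 10 genes, 10 windows in all; Cldn8 and Cldn23 were not among them. Each sequence is the 250 bases before the transcription start, 5′ to 3′ on the gene's strand, and capitals mark matches to the motifs TTTAT (the core letters bound by CDX factors), GGGCGG (SP1), ATCAAAG (TCF/LEF) and AACNGGTT (grainyhead factors) on either strand. The Cldn15 window is chr5:136967619-136967868 on the plus strand, the Cldn2 window chrX:139800558-139800807 on the plus strand, and the Cldn4 window chr5:134946935-134947184 on the minus strand.
Cldn15: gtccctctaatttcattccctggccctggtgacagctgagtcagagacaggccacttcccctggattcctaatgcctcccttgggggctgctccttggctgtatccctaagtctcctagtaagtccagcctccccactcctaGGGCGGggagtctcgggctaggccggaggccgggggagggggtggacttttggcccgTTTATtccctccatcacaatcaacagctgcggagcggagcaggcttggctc
Cldn2: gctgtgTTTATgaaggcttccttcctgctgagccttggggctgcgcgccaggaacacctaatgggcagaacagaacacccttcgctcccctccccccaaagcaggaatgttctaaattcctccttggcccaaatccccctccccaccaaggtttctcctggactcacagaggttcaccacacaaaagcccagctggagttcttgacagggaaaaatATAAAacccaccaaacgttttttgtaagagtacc
Cldn4: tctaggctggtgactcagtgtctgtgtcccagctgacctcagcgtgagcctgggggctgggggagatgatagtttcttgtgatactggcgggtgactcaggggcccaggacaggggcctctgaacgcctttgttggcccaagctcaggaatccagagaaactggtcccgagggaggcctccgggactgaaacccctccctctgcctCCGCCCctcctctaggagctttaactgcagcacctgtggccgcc

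The Cldn15 window held 1 TTTAT, starting 51 bases before the start, and 1 GGGCGG at 108 bases. Cldn2 held 2 TTTAT matches, at 244 and 34 bases, and the nearer one, on the opposite strand, lay inside the letters TATAAA of a TATA box. Cldn4 held no TTTAT and 1 GGGCGG on the opposite strand, 44 bases before the start. Of all 32851 RefSeq windows of this length, 37.3% held a TTTAT, 32.7% a GGGCGG, 3.21% an ATCAAAG and 1.79% an AACNGGTT. Tjp1 also held 1 TTTAT, at 171 bases, and no window of the 8 matched genes held ATCAAAG or AACNGGTT. A match is a description of letters and not evidence of binding. The windows of Cldn15 and Cldn4 had a GC content of 60.8% and 62.0%, and that of Cldn2 52.0%, against a median of 52.4% over all windows. Cldn4 and its neighbour Cldn3 lie on chromosome 5, and their starts are 39280 bases apart on opposite strands.

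The first question was whether the rectum differs from the middle colon. Of the 9 members that could be tested, 5 differed between the tissues: Cldn8 and Ocln were higher in rectum, and Cldn15, Cldn4 and Cldn23 were lower. The pore claudin Cldn15 showed the largest difference, 6.89-fold lower in rectum, and Cldn8 the largest rise, 3.22-fold. Cldn2, Cldn3, Cldn7 and Tjp1 did not pass the test. Each test took the rectum minus colon difference of the 4 mouse groups in limma with Benjamini-Hochberg adjustment over all 26273 probes tested, and a gene was called at an adjusted p under 0.05. Over the 12720 genes tested, 30.4% were called (15.1% higher and 15.3% lower in rectum), and 27.5% of probes, so that 5 of 9 stands against a background of nearly 1 gene in 3. The tissues did not overlap for the same 5 members, 2 higher and 3 lower in rectum, beside 33.7% of all genes (18.1% higher and 15.6% lower). The median difference was 0.10 over the 9 members and 0.05 over all genes. Without the WT control pair 3506 probes were called in place of 7225, and without the IL18ko control pair 3796, with 5 and 4 members among them.

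**Figure D1:**
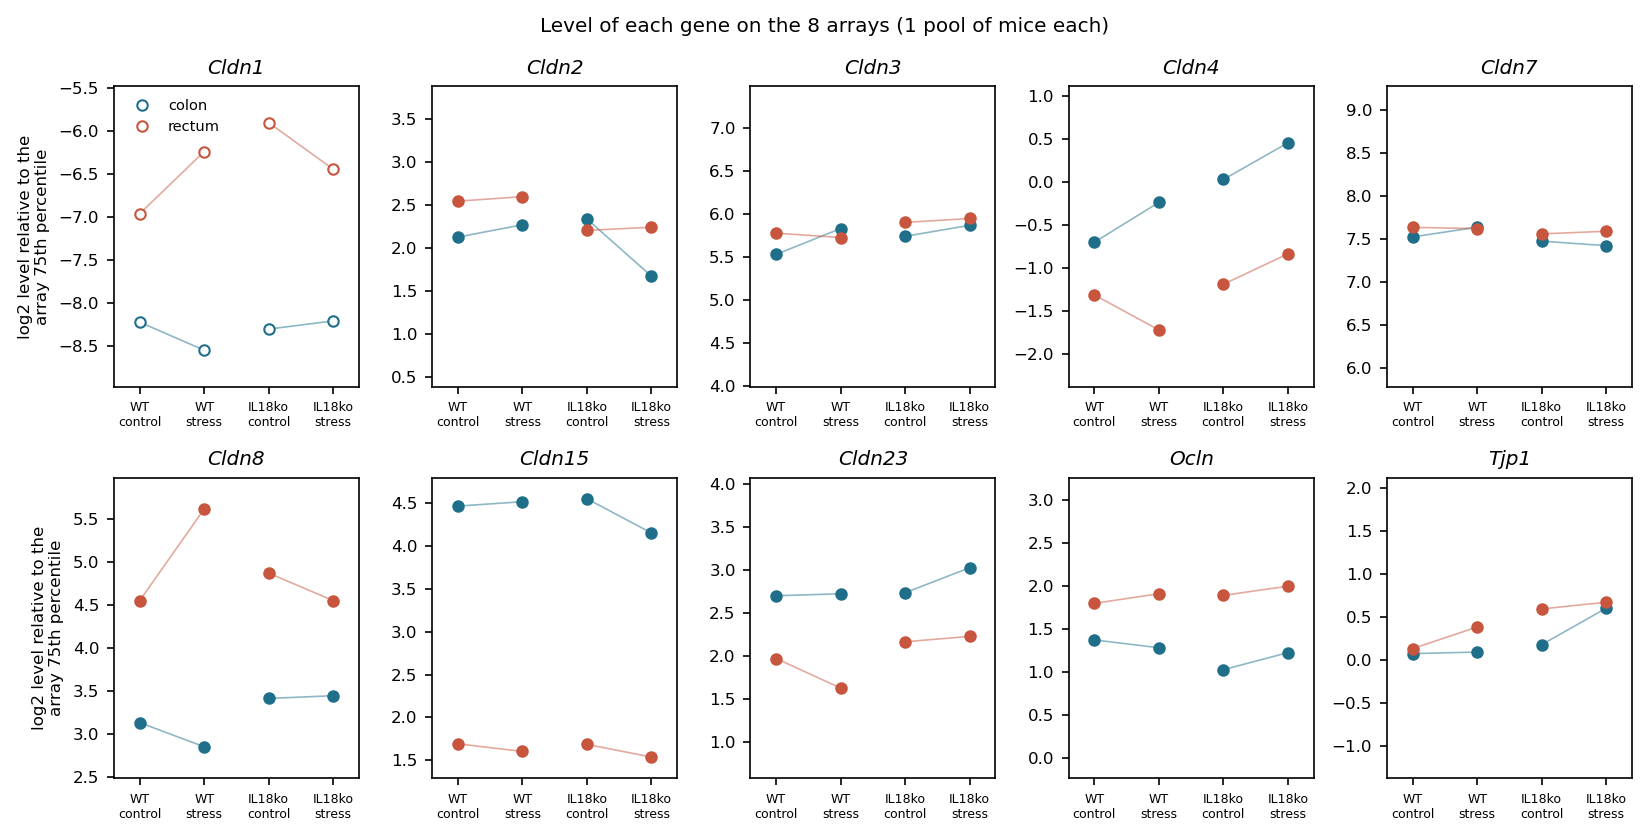
Log2 level relative to the array's 75th percentile (vertical axis) of each of the 10 genes on the 8 arrays, by genotype and housing (horizontal axis), with colon in blue and rectum in red. Each point is 1 array of 1 RNA pool, lines join control and stress of a genotype, and open points, as on all 8 arrays for Cldn1, were not well above background. The tissues stand apart for Cldn4, Cldn8, Cldn15, Cldn23 and Ocln, with Cldn15 at 4.15 to 4.54 in colon and 1.54 to 1.69 in rectum, and overlap for Cldn2, Cldn3, Cldn7 and Tjp1.

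Among the pore claudins, Cldn15 was at 4.46 in colon WT control, 4.51 in WT stress, 4.54 in IL18ko control and 4.15 in IL18ko stress, and in the same order at 1.69, 1.60, 1.69 and 1.54 in rectum. Its lowest colon array lay far above its highest rectum array, and the 4 paired differences ran from -2.91 to -2.61. The mean difference was -2.78 ± 0.10 (SE, 4 pairs), with a 95% confidence interval of -3.02 to -2.55 and an adjusted p of 1.33e-05. Cldn2 was at 2.13, 2.27, 2.34 and 1.67 in colon and at 2.54, 2.60, 2.20 and 2.24 in rectum, and the tissues overlapped, with the IL18ko control pair running the other way at -0.13. Its mean difference of 0.30 ± 0.14 (interval -0.03 to 0.62) did not pass (adjusted p 0.154). The 2 pore-forming members thus gave separate results, a fall for Cldn15 and an undecided difference for Cldn2; the contrast between them was not tested.

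Of the claudins usually counted as sealing, Cldn8 was at 3.13, 2.85, 3.41 and 3.44 in colon and at 4.55, 5.61, 4.87 and 4.55 in rectum. Every rectum array lay above every colon array, and WT stress rectum was the highest. The mean difference was 1.69 ± 0.26 (interval 1.06 to 2.31, adjusted p 0.00451), from pairs of 1.11 to 2.77. Without the WT stress pair it was 1.33, with an adjusted p of 2.91e-05.

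Cldn4 was at -0.70, -0.23, 0.03 and 0.46 in colon and at -1.31, -1.72, -1.19 and -0.83 in rectum. All rectum arrays were below all colon arrays, though IL18ko stress rectum came close to WT control colon. The difference was -1.15 ± 0.16 (interval -1.54 to -0.77, 2.22-fold lower in rectum, adjusted p 0.00295). Cldn3, whose gene neighbours Cldn4, was at 5.53, 5.83, 5.74 and 5.87 in colon and at 5.78, 5.73, 5.91 and 5.95 in rectum, and its tissues overlapped. Its difference was 0.10 ± 0.09 (interval -0.13 to 0.32, adjusted p 0.490), so a fold as large as that of Cldn4 lies outside its interval.

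Cldn7 was at 7.52, 7.64, 7.47 and 7.42 in colon and at 7.63, 7.62, 7.56 and 7.59 in rectum, the narrowest range of the 10 genes. Its difference was 0.09 ± 0.08 (interval -0.10 to 0.28, adjusted p 0.457), and its sign turned under quantile normalization. Cldn23, a claudin known from the differentiated cells of the intestinal surface, was at 2.70, 2.73, 2.74 and 3.03 in colon and at 1.97, 1.63, 2.17 and 2.23 in rectum. All rectum arrays were below all colon arrays, with pairs from -1.1 to -0.57, and the difference of -0.80 ± 0.12 (interval -1.08 to -0.52, 1.74-fold lower, adjusted p 0.00337) passed.

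Cldn1 could not be tested. Its brighter probe read -8.22, -8.55, -8.30 and -8.21 in colon and -6.96, -6.24, -5.90 and -6.44 in rectum, and neither of its 2 probes was well above background on any array, so no fold is given.

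Occludin was at 1.38, 1.29, 1.03 and 1.23 in colon and at 1.80, 1.91, 1.89 and 2.00 in rectum, with no overlap. The difference was 0.67 ± 0.11 (interval 0.41 to 0.94, 1.59-fold, adjusted p 0.00586). Its dimmer second probe gave 0.81 ± 0.24 and an adjusted p of 0.0501, and its tissues overlapped. Without the IL18ko control pair the brighter probe gave 0.61 with an adjusted p of 0.0524. Tjp1 was at 0.07, 0.09, 0.17 and 0.60 in colon and at 0.13, 0.38, 0.59 and 0.67 in rectum, with overlapping tissues. Its difference was 0.21 ± 0.11 (interval -0.06 to 0.48, adjusted p 0.215), positive in all 4 pairs, and its second probe gave 0.48 ± 0.21 (adjusted p 0.132).

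**Figure D2:**
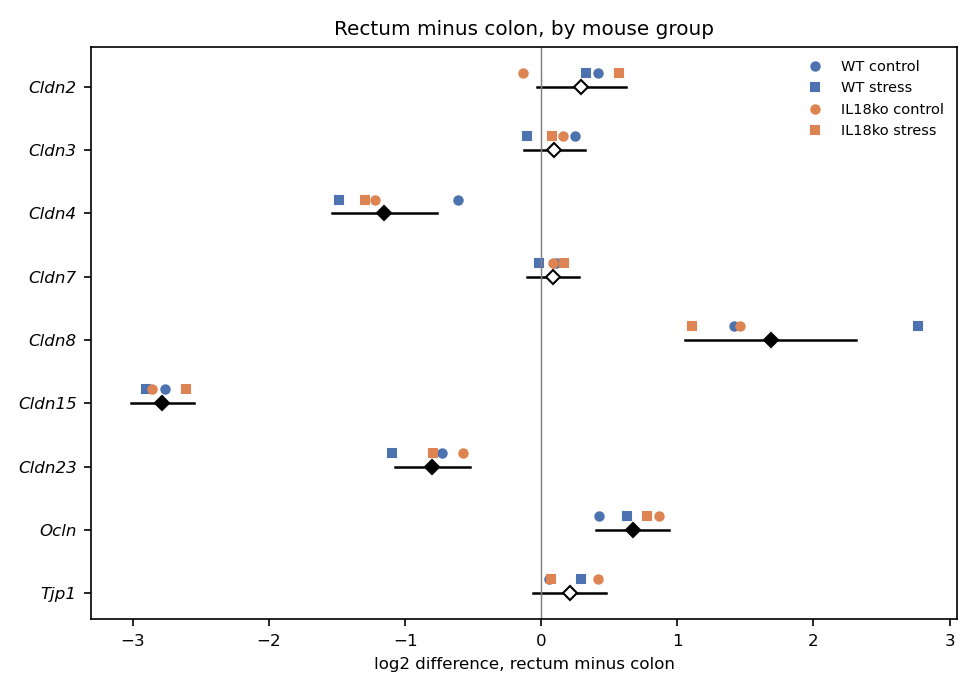
Rectum minus colon log2 difference (horizontal axis) of the 9 tested genes, with 1 coloured point for each of the 4 mouse groups and below them the mean (diamond) with its 95% confidence interval (line). Filled diamonds mark the 5 genes with an adjusted p under 0.05, from Cldn15 at -2.78 to Cldn8 at 1.69, and the 4 open diamonds have intervals that reach 0.

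Markers of other cell types moved between the tissues as well. The summed level of 17 squamous epithelium markers was 3.68 to 4.76 in colon, with 7 to 8 of them well above background, and 6.31 to 10.27 in rectum, with 8 to 14 above background, while Ivl, Dsg3 and Dsc3 were above background on no array. Skeletal muscle markers summed to 3.28 to 5.73 in colon and 6.70 to 147 in rectum, enteric neuron and glia markers to 14.5 to 17.8 in colon and 4.10 to 6.34 in rectum, and adipocyte markers to 26.5 to 55.1 in colon and 10.7 to 35.1 in rectum. Their part in the differences of the 5 called members was not tested. Set relative to the simple epithelium markers instead of the 75th percentile, the same 5 members were called. The balance of all called probes moved from 3685 higher and 3540 lower to 2830 higher and 4109 lower in rectum. Of these 10 markers, 2 were themselves called higher in rectum and 1 lower (30% called, against 30.4% of all genes).

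The second question was whether mice without IL-18 differ from WT mice in these genes. None of the 9 tested members passed the test for genotype, and Cldn4 had the largest difference, 1.52-fold higher in IL18ko. Each test used the 4 IL18ko minus WT differences, 1 for each tissue and housing. Across all genes only 0.0472% (6 of 12720; 0.0495% of probes) were called, and 17.4% had an unadjusted p under 0.05, against 2 of the 9 members, Cldn4 and Tjp1. The sign was the same in all 4 pairs for 5 of the 9 members, 4 higher and 1 lower in IL18ko, beside 27.8% of all genes (12.2% higher and 15.6% lower).

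For Cldn4 the IL18ko pool was above its WT pool in all 4 pairs, by 0.73 in control colon, 0.69 in stress colon, 0.12 in control rectum and 0.89 in stress rectum. The mean was 0.61 ± 0.15, with an interval of 0.25 to 0.97, an unadjusted p of 0.00557 and an adjusted p of 0.189. A fit of genotype and stress to the 4 tissue means, with 1 residual degree of freedom, called Cldn4 alone among the members at the same difference (adjusted p 0.00716), and in that fit 3075 probes were called against 13; without the control colon or control rectum pair 3 and 4 probes were called. For Tjp1 the 4 differences ran from 0.10 to 0.51, with a mean of 0.34 ± 0.12 (interval 0.06 to 0.62, adjusted p 0.243), and its second probe gave 0.32 ± 0.20.

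Cldn23 was higher in IL18ko in all 4 pairs, by 0.04 to 0.60 (mean 0.28 ± 0.12, interval -0.01 to 0.57, adjusted p 0.314). Cldn3 was also on the positive side in each pair (mean 0.15 ± 0.09, adjusted p 0.447), a direction that turned to -0.04 when levels were set relative to the epithelial markers, and Cldn7 was on the negative side in each (mean -0.09 ± 0.09, adjusted p 0.629), which became 0.02 under quantile normalization. These 3 did not pass, and their intervals include 0. Cldn2 was lower in IL18ko in 3 of 4 pairs (mean -0.27 ± 0.15, interval -0.62 to 0.08, adjusted p 0.405). Cldn15 differed by -0.09 ± 0.11 (interval -0.35 to 0.18) and Ocln by -0.06 ± 0.12 (interval -0.34 to 0.22).

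Cldn8 had a mean genotype difference near 0 with a wide spread. The IL18ko pool was higher by 0.28 in control colon, 0.59 in stress colon and 0.32 in control rectum, and lower by 1.07 in stress rectum, where the WT stress array stood out at 5.61. The mean was 0.03 ± 0.26 (interval -0.59 to 0.66, adjusted p 0.966). Leaving out the stress rectum pair gave 0.40 and an adjusted p of 0.0375, the sole call among the members when any 1 pair was left out, and 2474 probes were then called. Each of the other 3 pairs left out gave a mean below 0.

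The genotype groups also differed in markers of other cell types. In rectum, WT and IL18ko arrays (2 each) did not overlap in the summed level of 7 of the 8 marker lists. Skeletal muscle markers differed most, at 6.70 to 19.7 in WT and 32.6 to 147 in IL18ko. The squamous markers summed to 6.31 to 6.74 in WT and 7.38 to 10.27 in IL18ko, the adipocyte markers to 10.7 to 14.8 and 28.6 to 35.1, the smooth muscle markers to 436 to 518 and 626 to 636, the neuron and glia markers to 4.10 to 4.85 and 6.29 to 6.34, and the endothelial markers to 2.05 to 2.94 and 2.96 to 3.27. The summed leukocyte markers were lower in IL18ko rectum, at 29.6 to 36.6 against 43.2 to 77.2, and simple epithelium markers overlapped. The leukocyte sum rests mostly on Lyz2. Lyz2 and Ptprc were lower on both IL18ko rectum arrays, while Cd3e, Cd79a, Itgam and Adgre1 overlapped between the genotypes. In colon the sums of the squamous markers did not overlap and were lower in IL18ko, at 3.68 to 4.17 against 4.56 to 4.76. Their mean log2 levels did overlap, at -5.22 and -5.45 in WT and -5.38 and -5.26 in IL18ko. The simple epithelium markers also stood apart, at 1466 to 1469 in IL18ko against 1285 to 1401 in WT, and the sums of the other lists overlapped. With 2 arrays a side, a lack of overlap carries no test. The part of all these markers in the member values was not tested. Scaling to the epithelial markers moved the median genotype difference of all genes by -0.19, and with it 58 probes were called, 8 of them higher, against 13 with 5 higher. One of those 10 markers, the epithelial transcription factor Elf3, was itself higher in IL18ko by 1.43 ± 0.12 (adjusted p 0.0241).

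The third question was whether stress and control pools differ. Control mice were taken before isolation and stress mice after it, so isolation cannot be told apart from age or time of collection. None of the 9 tested members passed, as none of the 12720 genes did (0% called; 3.66%, 465 genes, had an unadjusted p under 0.05, and 0 of the 9 members; the fit to 4 tissue means called 23 probes and no member). The mean stress minus control differences of the members lay between -0.15 and 0.21. The largest were Cldn4 at 0.21 ± 0.17 (interval -0.19 to 0.60), Tjp1 at 0.19 ± 0.11 (interval -0.06 to 0.44) and Cldn15 at -0.15 ± 0.10 (interval -0.38 to 0.09). Cldn2 differed by -0.11 ± 0.15 (interval -0.46 to 0.25), Cldn3 by 0.11 ± 0.09 (interval -0.10 to 0.31) and Ocln by 0.08 ± 0.09 (interval -0.14 to 0.30). Cldn7, at 0.02 ± 0.07 (interval -0.15 to 0.19), and Cldn23, at 0.01 ± 0.12 (interval -0.27 to 0.29), were nearest to 0, and both changed sign under quantile normalization and relative to the epithelial markers. Cldn8 is given with its single pools. Tjp1 was the single member with the same sign in all 4 pairs, from 0.02 to 0.42, beside 14.5% of all genes (8.74% higher). Its second probe gave -0.40 in WT colon and was above 0 in the other 3 pairs (mean 0.17 ± 0.20). Adjusted p-values of the 9 members ran from 0.866 to 0.990.

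Single pools moved further than these means. Cldn8 was higher by 1.07 under stress in WT rectum and lower by 0.32 in IL18ko rectum, with differences of -0.28 and 0.03 in WT and IL18ko colon; its mean of 0.12 ± 0.23 (interval -0.42 to 0.67) became -0.19 without the WT rectum pair. Of 6 leukocyte markers, 3 were highest of all 8 arrays on that WT stress rectum array: Lyz2 at 6.22, Adgre1 at 0.82 and Ptprc at -0.02. The other 3, Cd3e, Cd79a and Itgam, were highest elsewhere. The summed level of the list, 77.2 against 29.6 to 43.2 on the other rectum arrays, rests mostly on Lyz2. The mean log2 level was lower there (-1.74) than in WT control rectum (-1.49). Of all 8 arrays, WT stress rectum also had the lowest summed smooth muscle markers, at 436, and the lowest 75th percentile, at a log2 intensity of 9.24. Its simple epithelium sum, 1534, was the highest, though its mean log2 level of 6.56 was not. The part of all these features in the Cldn8 value was not tested. Cldn2 was lower by 0.67 under stress in IL18ko colon, while its other 3 pairs lay between 0.04 and 0.14. Cldn4 was higher by 0.46 and 0.43 in WT and IL18ko colon and by 0.35 in IL18ko rectum, and lower by 0.41 in WT rectum. With 1 pool on each side, these single differences have no replicate and no test.

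**Figure D3:**
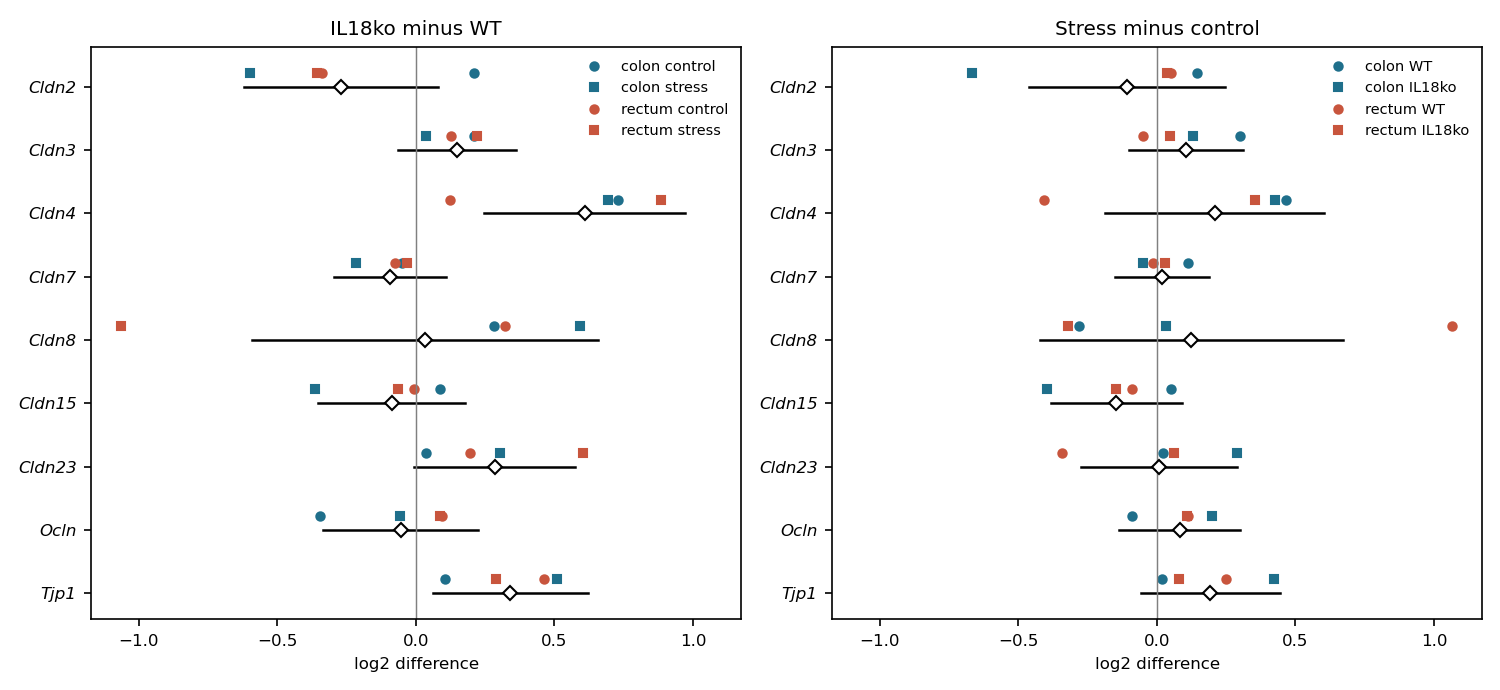
Log2 differences (horizontal axis) of the 9 tested genes between IL18ko and WT (left) and between stress and control (right). Coloured points are the 4 pairs of arrays, diamonds the means and lines the 95% confidence intervals; all diamonds are open because no adjusted p was under 0.05. The IL18ko minus WT points of Cldn4 lie between 0.12 and 0.89, and the points of Cldn8 spread from -1.07 to 0.59 for genotype and up to 1.07 for stress.

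Whether the genotype or stress difference depended on tissue was tested on the 4 rectum minus colon differences. For genotype, 0 of the 9 members and 0 of 12720 genes passed (0% called, 3.22% at an unadjusted p under 0.05; 112 probes and no member in a fit with stress as a further term), and adjusted p-values of the members ran from 0.777 to 0.940. Cldn8 had the largest estimate, -0.81 ± 0.44 (interval -1.88 to 0.27), with mean genotype differences of 0.44 in colon and -0.37 in rectum. Ocln was lower in IL18ko in both colon pairs, by 0.35 and 0.06, and higher by 0.09 in both rectum pairs. The test of this opposition gave 0.29 ± 0.21 (interval -0.23 to 0.82, adjusted p 0.777). Its dimmer second probe gave -0.17 in control rectum and 0.75 in stress rectum, and 0.79 ± 0.41 (adjusted p 0.777) in the same test. The estimates of the other 7 were 0.23 ± 0.23 for Cldn23, -0.21 ± 0.34 for Cldn4, -0.15 ± 0.28 for Cldn2, 0.10 ± 0.21 for Cldn15, 0.08 ± 0.16 for Cldn7, 0.07 ± 0.25 for Tjp1 and 0.05 ± 0.20 for Cldn3. For stress, 0 of 9 members and 0 genes passed (0% called, 0.409% at an unadjusted p under 0.05; 50 probes and no member with genotype as a further term), and the widest estimates were 0.50 ± 0.52 for Cldn8 and -0.47 ± 0.33 for Cldn4, and the adjusted p of all 9 rounded to 1. The other 7 were 0.31 ± 0.30 for Cldn2, -0.30 ± 0.27 for Cldn23, -0.22 ± 0.23 for Cldn3, 0.06 ± 0.29 for Ocln, -0.06 ± 0.29 for Tjp1, 0.06 ± 0.26 for Cldn15 and -0.02 ± 0.22 for Cldn7.

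Other genes of the junction were read from lists written with the members. Of 18 further claudin genes, 13 were on the array and 6 could be tested for tissue; 3 were higher in rectum, 0 lower and 3 did not pass, with a median of 0.73 against 0.05 over all genes. Cldn9 was at -3.38 to -2.94 in colon and -2.39 to -1.82 in rectum (difference 1.04 ± 0.14, adjusted p 0.00212), Cldn14, a cation-blocking claudin of kidney and inner ear, differed by 0.86 ± 0.13 (adjusted p 0.00451), and the endothelial claudin Cldn5 by 0.60 ± 0.15 (adjusted p 0.0259). Summed endothelial markers were 2.14 to 3.25 in colon and 2.05 to 3.27 in rectum. The median log2 difference of these 7 markers was 0.35, with 0 called, and their part in the Cldn5 difference was not tested. Cldn17 was above background on 0 colon and 3 rectum arrays (measured means -8.04 and -5.59), so no fold is given. Cldn10, not called at 1.03 ± 0.54, stood at -1.30 in IL18ko control rectum against -4.64 to -3.75 on the other 7 arrays, and that array also had the highest skeletal muscle markers, at a summed level of 147, whose part was not tested. Cldn6, Cldn11, Cldn13, Cldn16 and Cldn18 were above background on no array.

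Among 11 tested membrane proteins of the junction other than claudins and Ocln, 2 were higher in rectum, 1 was lower and 8 did not pass. Called genes made up 27.3% of this list, near the 30.4% of all genes. Lsr (angulin-1), which marks the corners where 3 cells meet, was at 5.63 to 5.89 in colon and 6.76 to 7.28 in rectum (difference 1.17 ± 0.09, adjusted p 0.000295), and the adhesion molecule JAM-A (F11r) differed by 0.39 ± 0.08 (adjusted p 0.0159). Igsf5 (JAM4) was lower by 0.40 (SE 0.09, adjusted p 0.0207). Of 18 tested proteins of the junction plaque and cell polarity, the group Tjp1 belongs to, 2 were higher and 16 did not pass: the scaffold Magi1 differed by 0.72 ± 0.20 (adjusted p 0.0368) and Pard6g, of the polarity complex, by 0.56 ± 0.13 (adjusted p 0.0213). The share called, 11.1%, was below the 30.4% of all genes, and no test of that shortfall was made.

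Adherens junction and desmosome genes, next to the tight junction on the lateral membrane, gave 4 higher, 3 lower and 9 not called of 16 tested. The share called was 43.8%, against 30.4% of all genes, and this difference in share was not tested. Nectin4 was at -5.18 to -4.60 in colon and at -3.12 to -2.71 in rectum (difference 1.93 ± 0.19, adjusted p 0.000779), Evpl, a protein of the cornified envelope, was higher by 0.94 ± 0.16 and E-cadherin (Cdh1) by 0.43 ± 0.08 (adjusted p 0.0102). The desmosomal cadherin Dsc2 was lower, with a difference of -1.20 ± 0.19 (adjusted p 0.00457), as was Nectin1 at -0.93 ± 0.10 (adjusted p 0.00107). The summed squamous epithelium markers given above were higher in rectum, while genes of this group went both ways. The part of those markers in these differences was not tested.

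Of 17 tested partners and regulators of claudins, 3 were higher in rectum, 2 lower and 12 not called. The share called, 29.4%, was near the 30.4% of all genes. The intestinal transcription factor Cdx2 differed most, at 5.54 to 7.02 in colon and 1.84 to 3.61 in rectum (difference -3.62 ± 0.14, adjusted p 1.74e-05). Wnk4, a kinase that phosphorylates claudins in the kidney, was lower by 0.70 (SE 0.15, adjusted p 0.0177). Klf5, a transcription factor of crypt cells, was higher by 0.84 ± 0.09 (adjusted p 0.00111) and the protease inhibitor Spint2 by 0.72 ± 0.14 (adjusted p 0.0120). Epcam, which binds claudin 7, differed by 0.17 (adjusted p 0.176). For genotype, Cdx2 alone of the 68 genes tested in these 5 lists passed, higher in IL18ko in 4 of 4 pairs by 1.37 ± 0.10 (adjusted p 0.0134), at 7.02 and 6.85 in IL18ko colon against 5.81 and 5.54 in WT colon, and at 3.25 and 3.61 against 1.84 and 2.05 in rectum. Cldn15 differed by -2.78 ± 0.10 between tissues and by -0.09 ± 0.11 between genotypes, and a link between Cdx2 and Cldn15 was not tested. For stress, 0 of the 68 passed.

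**Figure D4:**
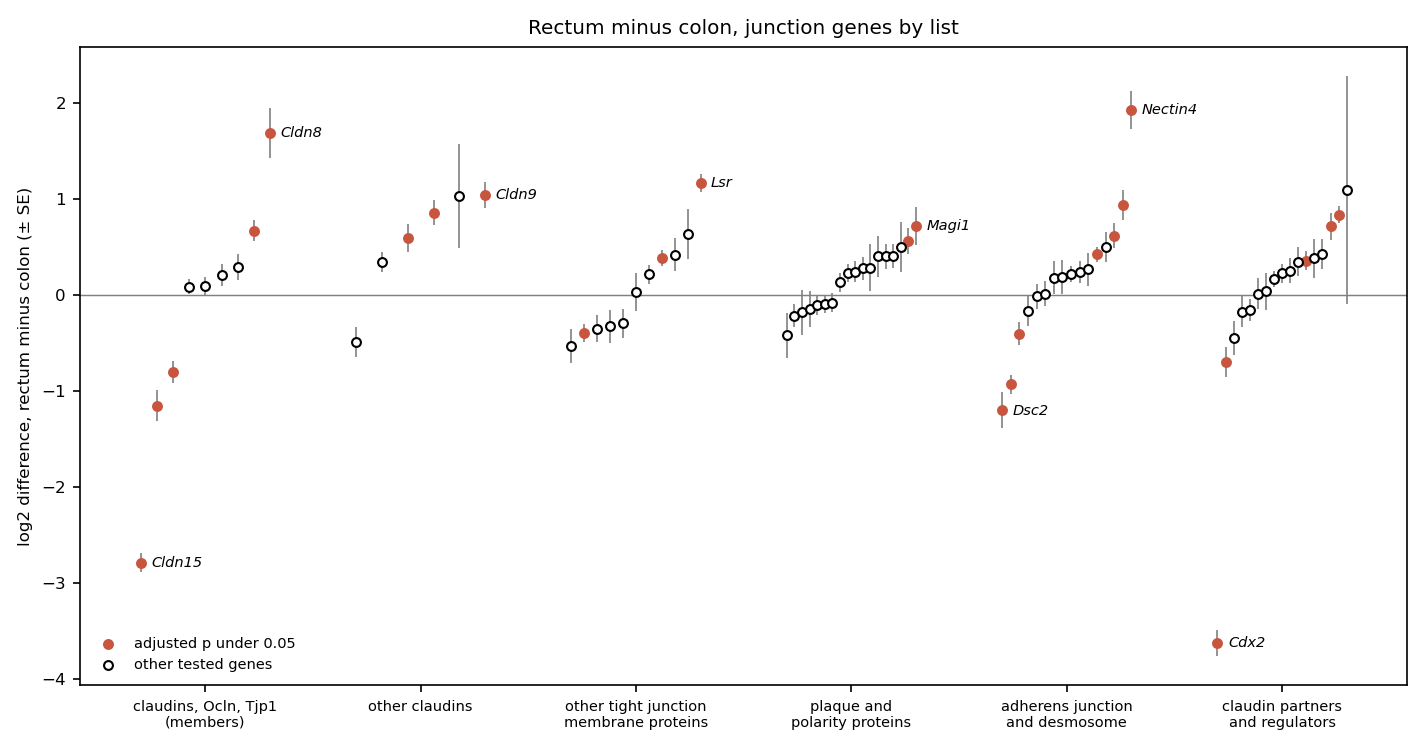
Rectum minus colon log2 difference with its standard error (vertical axis) for each tested gene of the members and of 5 other junction lists (horizontal axis), sorted within each list. Filled points had an adjusted p under 0.05; Cdx2 at -3.62 and Cldn15 at -2.78 are the lowest, and Nectin4 at 1.93 and Cldn8 at 1.69 the highest of those called.

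The genes most like the 3 most variable members were found by the root mean square distance between profiles over the 8 arrays, each centred on its own mean, among 12719 genes. For Cldn15 (SD 1.49) they were the amino acid transporter Slc1a4 at a distance of 0.149, Elapor1 at 0.165 and Apol9b at 0.173. For Cldn8 (SD 0.98) they were the corepressor Tle4 at 0.114, the transcription factor Irf2 at 0.128 and the diamine oxidase Aoc1 at 0.175. For Cldn4 (SD 0.73) they were Tubb2b at 0.149, Elavl3 at 0.151 and Cdk5r1 at 0.156, genes best known in neurons. All 8 arrays share their 2 slides, and the likeness carries no test.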

How the data were processed

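Scanner files of 8 one-colour Agilent whole mouse genome arrays were used, 1 per pool of 5 mice. Per the file headers, Feature Extraction 9.5.1.1 gave the deposited background-corrected intensity of each spot. Per the labels, the authors' value table is a ratio to colon WT control; it matched the scanner files' own ratios at r of 0.995 to 1.00 across 18299 features, and served as an alternative. The authors' array scaling is not given in the sources used here.

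Outlier spots were dropped and spots averaged by probe (40963 of 41174 kept). Transcript accessions named 22857 probes, for 16309 genes. Log2 intensity was taken relative to the array's 75th percentile, and a probe was tested where 4 or more of the 8 arrays had it well above background (26273 probes, 12720 genes). Paired differences were fitted with limma 3.58.1 in R 4.3.3 (eBayes, variance trend by mean level; Benjamini-Hochberg over all tested probes). limma's SE borrows variance from other probes, so it may understate the spread between pairs. If colon and rectum pools shared mice, p-values for genotype and stress are too small; all p-values measure spread between these pools. Scripts were tested on simulated data. Every tested member is named in every comparison, and up to 4 called genes per list and direction; other genes with values were picked after their values were seen. Members, lists and tests were chosen with earlier results of these data known. The number of arrays limits the precision. Alternatives were other scalings, background correction, filters, probe rules, variance models, designs, the deposited ratios and each pair left out. Python 3.11.15 read the RefSeq windows and drew the figures.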

Additional observations from a re-analysis of the deposited data

How the results depend on the processing

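Of 9 tested members, 5 were called for tissue in the main setting and 4 to 5 under 14 alternatives; Cldn4, Cldn8, Cldn15 and Cldn23 were called in each (-1.33 to -1.03, 1.33 to 1.88, -2.86 to -2.68 and -0.93 to -0.70), and Ocln in 13 (0.57 to 0.76). For genotype the count of 0 became 1 in the fit to 4 tissue means (Cldn4), and ran from 0 to 1 when each pair was left out (Cldn8, without the stress rectum pair). For stress and for both tests of tissue dependence it was 0 throughout. Probes called for tissue fell from 7225 to 3506 and 3796 without the WT control or the IL18ko control pair. For genotype 13 became 58 relative to epithelial markers, 6 with deposited ratios, 7 with probes above background on all 8 arrays, 32 with arrays taken as independent, 3075 in the fit to tissue means, and 3, 4 and 2474 without the control colon, control rectum or stress rectum pair. The 0 probes called for stress became 23 in the fit to tissue means, and those for dependence on tissue became 112 (genotype) and 50 (stress) with both as terms. The cause was not tested.

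Signs that turned belonged to differences that were not called. Under quantile normalization Cldn7 gave -0.078 for tissue, 0.017 for genotype and -0.065 for stress, and Cldn23 -0.018 for stress. Median centring gave -0.041 for Cldn8 (genotype) and -0.0012 for Cldn23 (stress). Relative to epithelial markers, genotype gave -0.039 for Cldn3 and -0.15 for Cldn8, and stress -0.063 for Cldn7, -0.074 for Cldn23 and -0.00029 for Ocln. The mean over probes gave -0.019 for Ocln (stress). With each pair left out in turn, the genotype difference ranged from -0.15 to 0.40 for Cldn8, from -0.105 to 0.041 for Ocln and from -0.15 to 0.0044 for Cldn15. The stress difference then ranged from -0.19 to 0.078 for Cldn2, from -0.012 to 0.043 for Cldn7, from -0.19 to 0.27 for Cldn8 and from -0.086 to 0.126 for Cldn23. In the normexp alternative, 18 spots that fell over 50 units below their local background were removed, a choice made after seeing the data. The labels give no replicate numbers, so no fit with a replicate block was run; the paired fits match arrays by group.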
